A study of Macaca mulatta with 16 samples.

Results

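DNA methylation of whole blood was measured in 16 rhesus monkeys, with 1 library per monkey, and 134 SmaI sites that stand alone on their chromosome and were mostly methylated in infants are described here. A site on chromosomes 1 to 20 was a member when at least 10 of the 13 libraries of ad libitum (AL) fed monkeys had 100 or more reads there, when its mean corrected methylation in the AL-infant libraries was 65% to 90%, and when no other listed SmaI site lay within 500 bp. The members were 134 of 463 isolated sites with enough reads, of 24288 sites with enough reads and of 362007 listed autosomal sites. The members were thus chosen by their AL-infant values, and every difference from AL-infant is given as a description, with no test.

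The 4 AL-infant monkeys, which the labels call young, were 49 (female, 0.8 years), 52 (female, 0.8 years), 54 (male, 0.9 years) and 57 (male, 0.9 years). The 5 AL-middle monkeys were 17 (male, 10.4 years), 40 (female, 12.1 years), 42 (male, 10.5 years), 43 (male, 11.4 years) and 46 (male, 11.4 years). The 4 AL-old monkeys were 2 (female, 23.7 years), 7 (male, 29.8 years), 24 (male, 21.9 years) and 33 (male, 29.3 years). The 3 CR-old monkeys, kept on caloric restriction (CR) from middle age on, were 1 (female, 24.9 years), 4 (female, 23.7 years) and 28 (female, 25.1 years). All 3 CR-old monkeys were female and 3 of the 4 AL-old monkeys were male, so diet and sex cannot be told apart in the full comparison. Each library came from a different animal, and whole blood mixes several kinds of white cells whose shares were not measured here.

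In mammalian DNA, cytosines followed by guanine are mostly methylated outside CpG islands, and the methyl groups are copied onto the new strand by maintenance enzymes at each cell division. Blood is renewed by dividing stem and progenitor cells throughout life, and slow loss of methylation at sites methylated early in life, together with gain at sites unmethylated early in life, is known as age-related methylation drift. SmaI recognises a GC-rich sequence with a CpG at its centre, so dense groups of SmaI sites tend to fall in GC-rich stretches, whereas a site with no SmaI neighbour is more often outside them. Gene and CpG island annotation of the genome build used by the files (rheMac2) was not used here, so sites carry only their listed names and positions.

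Digital restriction enzyme analysis of methylation (DREAM) reads methylation from the ends of DNA fragments. SmaI first cuts unmethylated sites, XmaI then cuts the remaining methylated ones, and the different ends are counted as unmethylated and methylated reads. Uncorrected methylation is the share of methylated reads. Corrected methylation multiplies the odds of that share by a factor, set by the authors from standards added to each sample, that is constant within a library. Reads at SmaI sites ranged from 8075854 (AL-old 24) to 129172235 (CR-old 28) per library, and the median over members and libraries was 447 reads. At 49 members all 16 libraries had 100 or more reads, and values under 100 reads were left out elsewhere. The mean constant was lowest for AL-old libraries, 0.340 ± 0.0736 (SD, n = 4), followed by AL-infant with 0.433 ± 0.0303 (SD, n = 4), AL-middle with 0.595 ± 0.117 (SD, n = 5) and CR-old with 0.631 ± 0.139 (SD, n = 3), so the correction lowered AL-old values more than those of the other groups. The uncorrected reading of the spiked-in standard Luc306 was 27.3% to 32.0% in AL-middle, CR-old 1 and CR-old 28, and 41.4% to 68.2% in AL-infant, AL-old and CR-old 4. Both the corrected and the uncorrected result are therefore given for each comparison.

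The members lay on all 20 autosomes. Chromosomes 1, 10, 14 and 16 each held 12, chromosome 3 held 11, chromosomes 6 and 19 held 10 each, and chromosomes 4, 5, 12 and 18 held 1 each. The distance to the next listed SmaI site was 503 to 34756 bp, with a median of 1493 bp, against a median of 149 bp for the 4225 clustered sites with the same AL-infant methylation. The library protocol cut gel slices of 250 to 350 bp and 350 to 500 bp, and how reads arose at sites with no listed neighbour within that range was not tested. Of the members, 28 (20.9%) lay within 2 Mb of the first or last listed site of their chromosome, compared with 23.6% of the clustered sites and 16.5% of all sites with enough reads. Another site with enough reads was found within 5000 bp of 36 members, and the median AL-infant methylation of these neighbours was 79.95%. Of these 36 neighbours, 16 were themselves at 65% to 90%, 8 were over 90% and 2 were under 5%.

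Methylation of the members was high and even in infants, a little lower in middle age and lowest in old AL-fed monkeys, with CR-old monkeys near the middle-aged ones. The high level in infants was set by the rule. The mean over members was 80.5%, 82.2%, 79.9% and 80.4% in AL-infant 49, 52, 54 and 57. It was 77.2%, 72.1%, 77.7%, 72.8% and 72.6% in AL-middle 17, 40, 42, 43 and 46. AL-old 2, 7, 24 and 33 had means of 61.1%, 68.0%, 59.7% and 53.7%, each below the means of all monkeys of the other groups. CR-old 1, 4 and 28 had means of 79.8%, 73.4% and 77.3%, within the span from AL-middle to AL-infant. AL-infant averaged 80.7% ± 0.990 (SD, n = 4), CR-old 76.9% ± 3.25 (SD, n = 3), AL-middle 74.5% ± 2.73 (SD, n = 5) and AL-old 60.6% ± 5.84 (SD, n = 4). Restricted to the 49 members with enough reads in all libraries, AL-infant means were 79.9% to 82.0%, AL-middle means 69.9% to 77.4%, AL-old means 53.1% to 66.3% and CR-old means 72.3% to 77.6%.

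The oldest animals took opposite ends of the AL-old group. AL-old 7, aged 29.8 years, had the highest AL-old mean, and AL-old 33, aged 29.3 years, had the lowest mean of all 16 monkeys. In AL-old 33, 60 of 122 members (49.2%) were under 50% methylated, compared with 17 (13.5%) in AL-old 7. On average 27.8% of members were under 50% in AL-old, compared with 3.76% in AL-middle, 2.67% in CR-old and 0.202% in AL-infant.

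**Figure D1:**
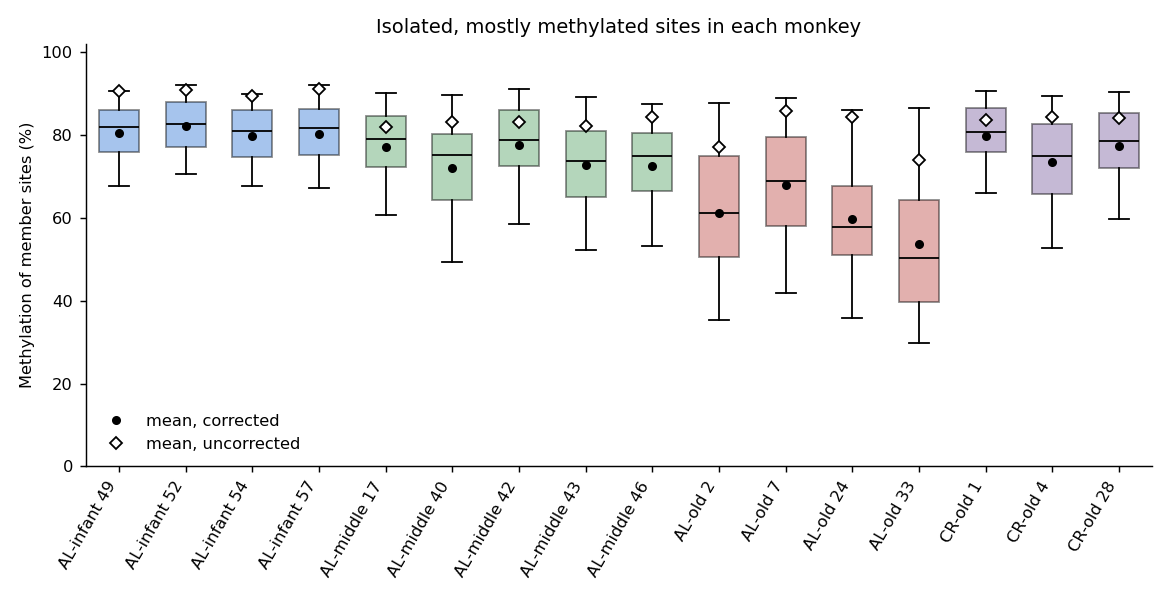
Methylation of the members (%, vertical axis) in each of the 16 monkeys (horizontal axis); boxes span the quartiles of the corrected values with a line at the median, whiskers reach the 5th and 95th percentiles, filled points are corrected means and open diamonds uncorrected means. The 4 AL-old boxes lie lowest, with corrected means of 53.7% to 68.0%, while the uncorrected mean of AL-old 24 (84.4%) lies within the AL-middle span of 82.0% to 84.5% and that of AL-old 7 (85.9%) above every AL-middle and CR-old mean.

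Without the correction the groups came closer. AL-infant averaged 90.5% ± 0.668 (SD, n = 4) uncorrected, CR-old 84.0% ± 0.406 (SD, n = 3), AL-middle 83.0% ± 0.987 (SD, n = 5) and AL-old 80.4% ± 5.68 (SD, n = 4). AL-infant remained above every other monkey on this scale, with 89.6% to 91.1%. Uncorrected means in AL-old 2, 7, 24 and 33 were 77.1%, 85.9%, 84.4% and 74.1%, so AL-old overlapped both AL-middle (82.0% to 84.5%) and CR-old (83.5% to 84.3%).

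On corrected values the members also varied more between old AL-fed monkeys. The median per-site SD between monkeys was 9.24 percentage points in AL-old, against 3.59 in AL-infant, 4.45 in CR-old and 4.66 in AL-middle. The SD was larger in AL-old than in AL-middle at 94 of 122 members with values from at least 3 monkeys of both groups. An SD over 10 points was found at 59 of 128 members in AL-old, 9 of 128 in AL-middle, 4 of 131 in AL-infant and 15 of 114 in CR-old. The per-site SD is not given for uncorrected values or for other sites. AL-old values were also lower and the AL-infant values chose the members, and the part of either in the SD was not tested.

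Relative to AL-infant, AL-middle was lower at 104 and higher at 21 of 125 members with values in at least 3 monkeys of each group, with a median difference of -4.88 points. AL-old was lower at 114 and higher at 11 of 125 members. Its median difference from AL-infant was -20.1 points, and single members ranged from -57.1 to 22.9 points. The difference exceeded 10 points downward at 94 members and 30 points downward at 28. CR-old was lower than AL-infant at 74 and higher at 38 of 112 members, with a median difference of -3.20 points. Uncorrected median differences from AL-infant were -9.67 points in AL-old, -6.24 in AL-middle and -5.24 in CR-old. AL-old values lay entirely below AL-infant values at 81 of 125 members and entirely above at 3. Over all sites, 28.1% were separated downward and 17.3% upward. On uncorrected values the counts were 60 and 4 members, beside 19.7% and 19.9% of all sites.

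**Figure D2:**
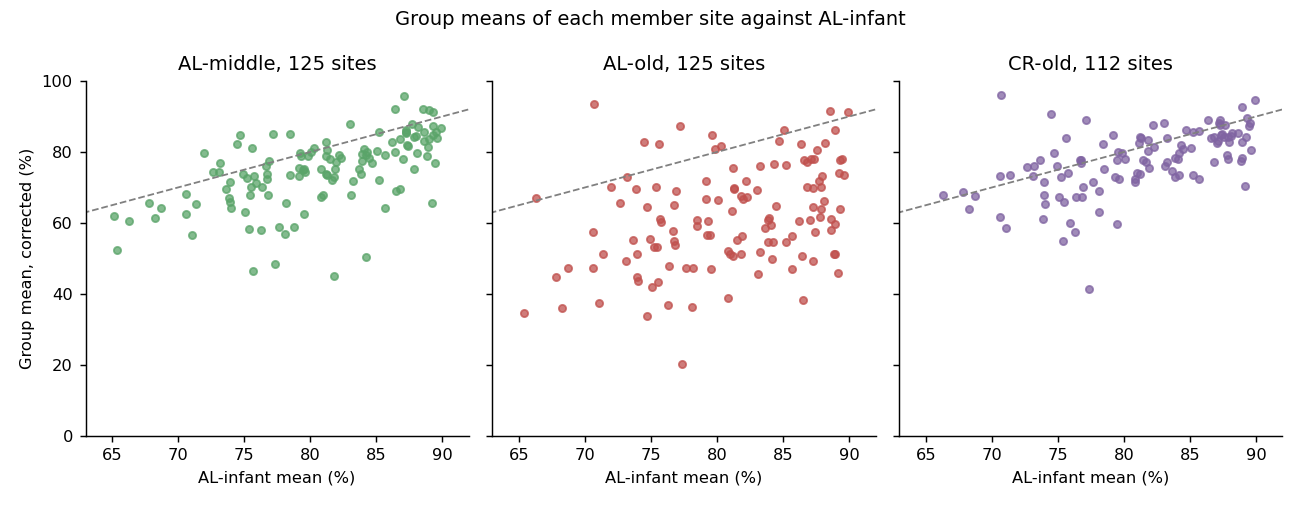
Mean corrected methylation (%) of each member in AL-middle, AL-old and CR-old (vertical axes) against its AL-infant mean (%, horizontal axis); 1 point per site with values in at least 3 monkeys of each group, and the dashed line marks equal values. In AL-old 114 of 125 points lie below the line, compared with 104 of 125 in AL-middle and 74 of 112 in CR-old.

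The order of the group means was similar at many members. Among 103 members with at least 3 values in each group, AL-infant had a higher mean than AL-middle, and AL-middle a higher one than AL-old, at 76. The lowest of the 4 means was in AL-old at 89 members, in AL-middle at 8, in AL-infant at 3 and in CR-old at 3. The highest was in AL-infant at 63 members, in CR-old at 28, in AL-middle at 9 and in AL-old at 3. CR-old lay between AL-old and AL-infant at 62 members and above both at 35. On uncorrected values AL-old was lowest at 66 members, CR-old at 18, AL-middle at 15 and AL-infant at 4, and AL-infant was highest at 84.

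The comparison of AL-old with AL-middle asks how methylation differed between old and middle-aged monkeys on the same diet. The methylation values of these groups did not choose the members, though their read depth counted in the rule. Of 122 members tested, 36 (29.5%) were lower and 2 (1.64%) higher in AL-old in the quasi-binomial model with correction constants. Over all 23394 sites tested, 13.6% were lower and 2.3% higher. The median difference of the members was -15.8 points, with 106 lower and 16 higher, and the quartiles were -20.7 and -8.57 points. Without the constants the count turned to 5 members lower and 9 higher, beside 1.2% and 12.0% of all sites, and the median difference was -3.27 points. The limma test on corrected log odds called 36 members lower and 0 higher (13.1% and 1.46% of all sites), and 0 members were higher at an unadjusted p under 0.05. Leaving out an AL monkey, infants included, also meant choosing the members again. Leaving out AL-old 7 raised the count of lower members to 64, with 140 members chosen. Leaving out AL-middle 17 reduced it to 19, with 139 members chosen. Shares over all sites are not given for counts with 1 monkey left out. The 2 higher members became 0 without AL-old 2 or AL-middle 43, and 1 without AL-old 33, AL-infant 52 or any of AL-middle 17, 40, 42 and 46.

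The 5 members with the largest decrease from AL-middle to AL-old, among those called and with no overlap of the groups, lay on 5 chromosomes. Their exact permutation p-values are small by this choice and add no support to the model. Site SmaI_rheMac2_189681 on chromosome 10 at position 2871330 had 88.7%, 83.4%, 89.0%, 87.8% and 79.4% in AL-middle 17, 40, 42, 43 and 46. It had 51.9%, 62.0% and 34.1% in AL-old 2, 24 and 33. Every AL-middle value exceeded every AL-old value, and AL-old 7 had too few reads here. The AL-middle mean of 85.7% ± 4.17 (SD, n = 5) and the AL-old mean of 49.3% ± 14.1 (SD, n = 3) differed by -36.3 points, with a Benjamini-Hochberg adjusted p = 0.00783 in the quasi-binomial model and p = 0.0179 in the exact two-sided permutation test.

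Site SmaI_rheMac2_54881 on chromosome 3 at position 2321186 had 82.2%, 79.4%, 72.4% and 66.4% in AL-middle 17, 42, 43 and 46. In the AL-old monkeys 2, 7, 24 and 33 it had 35.9%, 44.9%, 46.2% and 28.4%. The groups were at least 20 points apart, and the mean difference was -36.3 points (adjusted p = 0.00571 in the quasi-binomial model; exact permutation p = 0.0286, the smallest that 4 against 4 monkeys allow). Site SmaI_rheMac2_134964 on chromosome 7 at position 25963631 had 72.1% to 82.9% in AL-middle (median 78.9%) and 46.1%, 52.6%, 49.7% and 56.2% in AL-old 2, 7, 24 and 33. It gave an adjusted p of 0.000961 in the quasi-binomial model, a difference of -27.7 points and an exact permutation p of 0.00794, the smallest that 4 against 5 monkeys allow.

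The other sites were SmaI_rheMac2_211793 (chromosome 11, position 17639467), where AL-middle averaged 80.1% ± 7.02 (SD, n = 5) and AL-old 50.6% ± 8.49 (SD, n = 4), and SmaI_rheMac2_8316 (chromosome 1, position 24479768), where they averaged 69.1% ± 6.92 (SD, n = 3) and 38.2% ± 5.03 (SD, n = 3). Site SmaI_rheMac2_211793 is 34756 bp from the next listed SmaI site, the farthest of any member. Uncorrected AL-old minus AL-middle differences were smaller, with -18.9 points at SmaI_rheMac2_189681 and -19.0 at SmaI_rheMac2_54881. They were -11.0 points at SmaI_rheMac2_134964, -12.05 at SmaI_rheMac2_211793 and -14.9 at SmaI_rheMac2_8316. Of these 5 sites, 4 were also called lower on uncorrected reads, with adjusted p from 0.0153 to 0.0486 in the quasi-binomial model, and SmaI_rheMac2_8316 was not (adjusted p = 0.150). The fifth member called lower on uncorrected reads, named after its values were seen, was SmaI_rheMac2_308979 on chromosome 16 at position 77873268. Its corrected values were 85.8% to 89.3% in AL-middle and 79.0%, 63.4%, 56.1% and 78.2% in AL-old 2, 7, 24 and 33, and its adjusted p in the quasi-binomial model was 0.00982 with the constants and 0.0428 without.

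Both members called higher in AL-old than in AL-middle had overlapping groups and were named after their values were seen. Site SmaI_rheMac2_330114 on chromosome 19 at position 3949440 had 45.2% to 70.9% in AL-middle and 82.6%, 68.0%, 53.95% and 76.55% in AL-old 2, 7, 24 and 33. AL-old was higher by 11.9 points (adjusted p = 0.0432 in the quasi-binomial model with the constants, 0.0123 without, and 0.246 in limma). Its AL-infant values were 72.1% to 78.9% and its CR-old values 48.1% to 60.5%, so AL-middle and CR-old were low here and AL-infant was not. Site SmaI_rheMac2_307180 on chromosome 16 at position 74085957 had 55.6% to 67.7% in AL-middle and 56.4% to 79.3% in AL-old, a difference of 6.31 points (adjusted p = 0.0362 in the quasi-binomial model and 0.442 in limma).

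The comparison of CR-old with AL-old asks how caloric restriction relates to methylation in old monkeys. CR-old was higher at 104 and lower at 6 of 110 members, with a median difference of 17.8 points and quartiles of 9.24 and 22.3 points. In the quasi-binomial model with correction constants, 38 members (34.5%) were called higher and 1 (0.909%) lower, while 13.0% and 0.492% of 33134 sites tested were called higher and lower. On uncorrected reads 0 members were called higher and 2 lower, beside 0.145% and 1.89% of all sites, with 9 members in each direction at an unadjusted p under 0.05 and a median difference of 3.995 points. In limma on corrected log odds 0 members were called in either direction (0.0% of all sites higher and 0.00604% lower), with 60 members higher and 0 lower at an unadjusted p under 0.05.

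Single libraries carried much weight in this comparison. The count of members called higher was 60 without AL-old 7, 21 without AL-old 2, 22 without AL-old 24, and 23 without CR-old 1 or CR-old 28. Members chosen again numbered 140 without AL-old 7 or AL-old 2 and 153 without AL-old 24. They stayed at 134 without a CR-old monkey. The 1 member called lower was lost without AL-old 2, 24 or 33, or without CR-old 4 or 28. Shares over all sites are not given for these counts, which therefore do not set the members apart from other sites.

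Site SmaI_rheMac2_189681, described above for its decrease in AL-old, also had the largest CR-old difference, with 88.5%, 84.5% and 89.97% in CR-old 1, 4 and 28. CR-old exceeded AL-old by 38.3 points (adjusted p = 0.00943 in the quasi-binomial model; exact permutation p = 0.100, the smallest for 3 against 3 monkeys), and its mean of 87.7% ± 2.84 (SD, n = 3) lay beside 87.3% ± 2.83 (SD, n = 3) in AL-infant. At SmaI_rheMac2_54881 the values in CR-old 1, 4 and 28 were 79.4%, 61.9% and 73.5%, all above the 4 AL-old values given above. The difference was 32.7 points (adjusted p = 0.0107 in the quasi-binomial model; exact permutation p = 0.0286, the smallest for 3 against 4 monkeys).

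Site SmaI_rheMac2_271447 on chromosome 14 at position 119240545 had 35.5%, 66.0%, 43.6% and 37.7% in AL-old 2, 7, 24 and 33 and 78.3%, 72.3% and 77.5% in CR-old 1, 4 and 28. The groups did not overlap, although AL-old 7 came within 10 points of CR-old 4. The difference was 30.3 points, with an adjusted p of 0.0187 in the quasi-binomial model and an exact permutation p of 0.0571. Without AL-old 2, CR-old 1 or CR-old 28, this site had adjusted p of 0.0533, 0.101 and 0.0661 in the quasi-binomial model.

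Site SmaI_rheMac2_329972 on chromosome 19 at position 3776252 had 34.2%, 41.9%, 38.7% and 29.2% in AL-old 2, 7, 24 and 33, and 76.3%, 52.6% and 63.01% in CR-old 1, 4 and 28. CR-old was higher by 28.01 points (adjusted p = 0.0249 in the quasi-binomial model), and the adjusted p was 0.0543 without AL-old 2, 0.0542 without AL-old 24 and 0.0575 without CR-old 28. This site had the shallowest value of the sites named here, 66 of 100 reads methylated in AL-middle 40, an uncorrected 66.0% with a 95% Wilson interval of 56.3% to 74.5% that covers counting error only. Site SmaI_rheMac2_96144 on chromosome 4 at position 160647110 was the single member on that chromosome. It had 63.5%, 68.0%, 53.2% and 45.1% in AL-old 2, 7, 24 and 33, and 84.2%, 84.6% and 86.1% in CR-old 1, 4 and 28, a difference of 27.5 points (adjusted p = 0.0128 in the quasi-binomial model). On uncorrected reads the CR-old differences of these 5 sites were 10.3 to 19.6 points, with adjusted p from 0.0801 to 0.343 in the quasi-binomial model, and in limma each had an adjusted p of 0.124.

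The 1 member called lower in CR-old was SmaI_rheMac2_361581 on chromosome 20 at position 87374865, where AL-old monkeys were close together (SD 4.01 points) and those of the other groups were not (SD 12.9 to 16.0 points). It had 81.5%, 89.4%, 81.5% and 87.0% in AL-old 2, 7, 24 and 33, and 70.7%, 86.0% and 60.4% in CR-old 1, 4 and 28, so the groups overlapped. The difference was -12.5 points (adjusted p = 0.0406 in the quasi-binomial model with the constants, 0.0308 without, and 0.273 in limma). The other member called lower on uncorrected reads was SmaI_rheMac2_189529 on chromosome 10 at position 2485037, with an uncorrected difference of -7.94 points (adjusted p = 0.0351 in the quasi-binomial model) and a corrected one of -4.88 points (adjusted p = 0.0733).

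**Figure D3:**
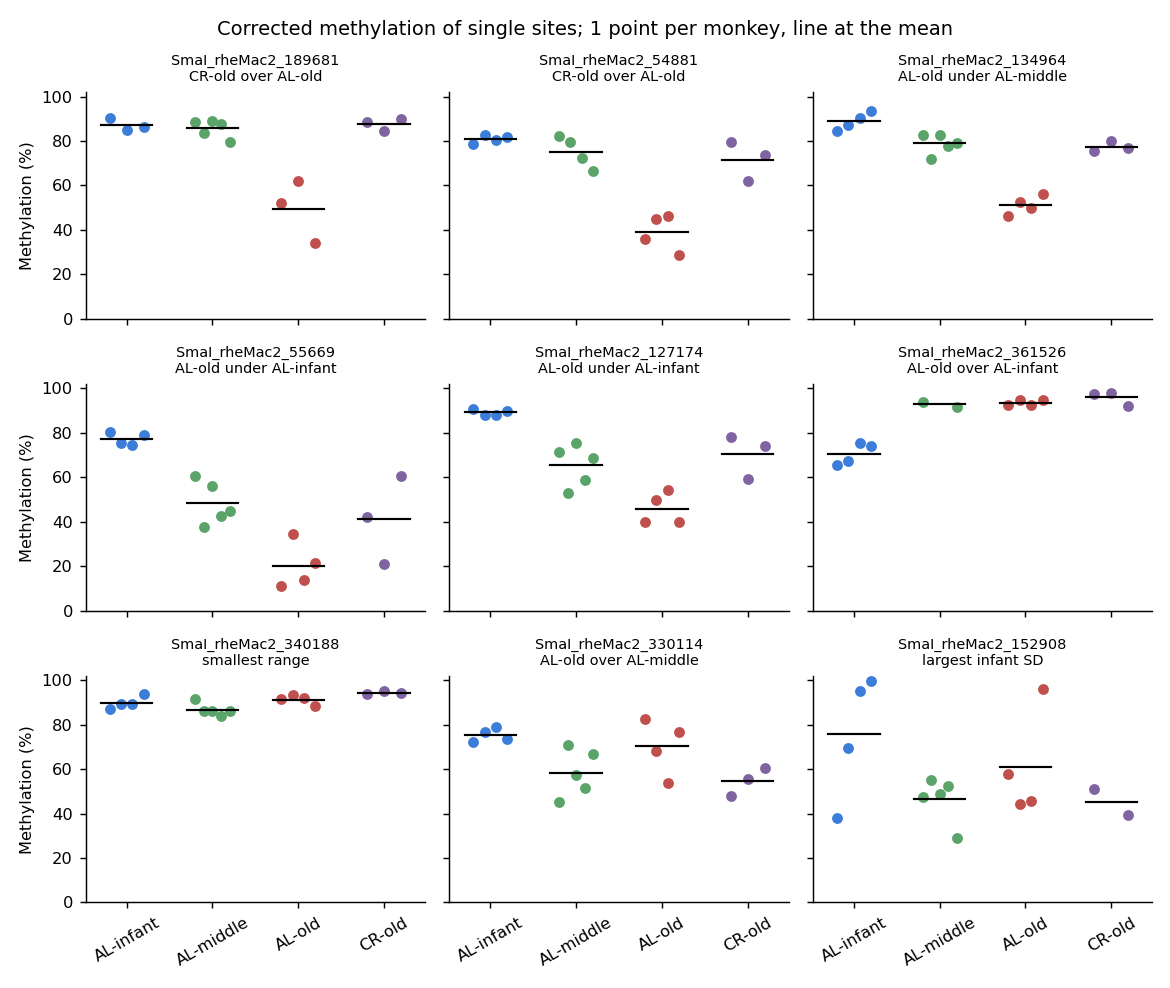
Corrected methylation (%, vertical axis) of 9 members in the 4 groups (horizontal axis); 1 point per monkey with 100 or more reads and a line at the group mean. At sites SmaI_rheMac2_189681, SmaI_rheMac2_54881 and SmaI_rheMac2_134964 all AL-old points lie below those of the other groups, at SmaI_rheMac2_361526 the AL-infant points lie below all others, and at SmaI_rheMac2_152908 single monkeys spread from 28.8% to 99.6%.

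CR-old and AL-old libraries also differed in the reading of their standards, in sex, in age and in depth. AL-old 7 and 33 were 29.8 and 29.3 years old, while no CR-old monkey was over 25.1 years. CR-old 1 and 28 had 121369394 and 129172235 reads, CR-old 4 had 18089849, and AL-old libraries had 8075854 to 57201027. The parts of sex, age and depth in the difference were not tested. CR-old 4 and AL-old 2 shared sex and age (female, 23.7 years). They were not matched in the standards: Luc306 read 42.6% uncorrected in CR-old 4 and 50.1% in AL-old 2, the lowest AL-old reading, and the constants were 0.494 and 0.424. The part of the standards in their difference was not tested. Across 119 members with values in both monkeys, CR-old 4 was higher at 100 and lower at 18, with a median difference of 12.9 points and means of 73.3% and 60.8%. On uncorrected values CR-old 4 was higher at 95 and lower at 24, with a median difference of 6.70 points. This is 1 monkey against 1, with no replicate check. Against the mean of AL-old, CR-old 4 had a median difference of 12.8 points corrected and 3.77 uncorrected.

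CR-old was then set beside AL-middle, a comparison added after the data were seen, in which CR-old 1, CR-old 28 and AL-middle had like readings of the Luc306 standard. The groups differed in diet and in age, 23.7 to 25.1 years in CR-old and 10.4 to 12.1 years in AL-middle. All CR-old monkeys were female and most AL-middle monkeys male, so diet, age and sex cannot be told apart here. Of 109 members, CR-old was higher at 71 and lower at 38, with a median difference of 1.90 points. The quasi-binomial model with the constants called 0 members higher and 0 lower, with 23 and 6 at an unadjusted p under 0.05, beside 0.291% and 0.013% of all sites called. On uncorrected reads it also called 0 in each direction, with 13 and 10 at an unadjusted p under 0.05, beside 0.174% and 0.0435% of all sites, and the median difference was 0.393 points. No call does not show that these groups were alike.

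The members with the largest AL-old deficit relative to AL-infant are listed as a description. At SmaI_rheMac2_55669 (chromosome 3, position 4246902) AL-infant had 80.5%, 75.2%, 74.5% and 79.2%, and AL-old 2, 7, 24 and 33 had 11.2%, 34.3%, 13.9% and 21.5%. AL-middle lay between with 37.5% to 60.8%, and CR-old 1, 4 and 28 had 42.2%, 20.7% and 60.8%, so CR-old overlapped both AL-old and AL-middle. The AL-old deficit was also large at SmaI_rheMac2_8316 (-48.3 points), SmaI_rheMac2_127174 (chromosome 6, position 155115796, -43.3 points), SmaI_rheMac2_54881 (-42.0 points) and SmaI_rheMac2_238937 (chromosome 13, position 913145, -41.8 points). Uncorrected, the differences at these 4 sites were -31.3, -24.2, -26.2 and -26.5 points, and at SmaI_rheMac2_55669 the corrected -57.1 points became -47.0. At SmaI_rheMac2_127174 the 4 infants were within 88.0% to 91.0%, while AL-middle had 52.8% to 75.6%, AL-old 39.8% to 54.1% and CR-old 59.2% to 78.1%. At SmaI_rheMac2_238937 AL-infant had 70.9% to 85.7%, AL-middle 49.3% to 65.5%, AL-old 28.4% to 42.9% and CR-old 48.7% to 71.5%.

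A few members were more methylated in AL-old than in AL-infant. Site SmaI_rheMac2_361526 on chromosome 20 at position 87258435 had 65.6%, 67.3%, 75.6% and 74.2% in AL-infant 49, 52, 54 and 57. All 9 older monkeys with enough reads had more: 94.1% and 91.6% in AL-middle 17 and 43, 92.4% to 94.9% in AL-old and 92.3% to 98.0% in CR-old. The AL-old difference from AL-infant was 22.9 points corrected and 13.1 uncorrected. Between CR-old and AL-old it was 2.39 points (adjusted p = 1.00 in the quasi-binomial model). At SmaI_rheMac2_30659 (chromosome 1, position 196640939) AL-infant had 72.2% to 80.4%, AL-middle 80.5% to 88.9%, AL-old 82.3% to 94.9% and CR-old 86.9% to 90.8%. SmaI_rheMac2_56535 (chromosome 3, position 9406232) had 72.6% to 78.3% in AL-infant and 79.4% to 86.0% in AL-old. SmaI_rheMac2_318223 (chromosome 17, position 92844935) was 8.42 points and SmaI_rheMac2_361581 5.24 points higher in AL-old, both with AL-old values that overlapped AL-infant.

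Other members differed little between monkeys. Among the 49 members with enough reads in all libraries, the range over 16 monkeys was smallest at SmaI_rheMac2_340188 (chromosome 19, position 46590696), with 11.4 points. It had 87.1% to 93.7% in AL-infant, 83.9% to 91.5% in AL-middle, 88.7% to 93.4% in AL-old and 93.9% to 95.3% in CR-old. SmaI_rheMac2_256713 (chromosome 14, position 2178679) had a range of 12.4 points. Its AL-old values, 76.5% to 80.02%, still lay below all CR-old values, 83.8% to 85.3% (difference 6.87 points, adjusted p = 0.00946 in the quasi-binomial model with the constants). Without the constants the direction turned, with a difference of -1.41 points (adjusted p = 0.409). SmaI_rheMac2_189529 had a range of 13.2 points, with 78.3% to 91.3% in AL-old and 78.0% to 81.8% in AL-middle.

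The limits of the rule cut through a continuous range. Just inside 65% lay SmaI_rheMac2_188773 (chromosome 10, position 1110188), with an AL-infant mean of 65.1%, and just outside SmaI_rheMac2_190646 (chromosome 10, position 7824664), with 64.4%. Their AL-old means were 54.6% (n = 2) and 63.5% (n = 3). Just inside 90% lay SmaI_rheMac2_340188 (89.9% in AL-infant and 91.4% in AL-old), and just outside SmaI_rheMac2_74721 (chromosome 3, position 170190203, 90.03% and 78.5%).

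Chromosome 19 stood apart, a pattern noticed after the values were seen. Of its 10 members, 9 could be compared between AL-old and AL-middle, and 5 were higher and 4 lower in AL-old, with a median difference of 0.578 points. On uncorrected values 7 were higher and 2 lower. Of these 10 members, 6 lay between positions 3381393 and 4096311. Within this stretch SmaI_rheMac2_330200 (position 4096311) had a mean of 80.8% in AL-old, beside 79.9% in AL-infant, 79.8% in CR-old and 78.9% in AL-middle. In the same stretch, SmaI_rheMac2_329972 had a mean of 36.0% in AL-old, beside 68.2% in AL-infant, 64.0% in CR-old and 61.4% in AL-middle. Among clustered sites with the same AL-infant methylation, chromosome 19 had a median AL-old minus AL-middle difference of -7.94 points over 325 sites, while the other chromosomes had medians of -17.4 to -11.9 points. The difference between chromosomes was not tested.

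**Figure D4:**
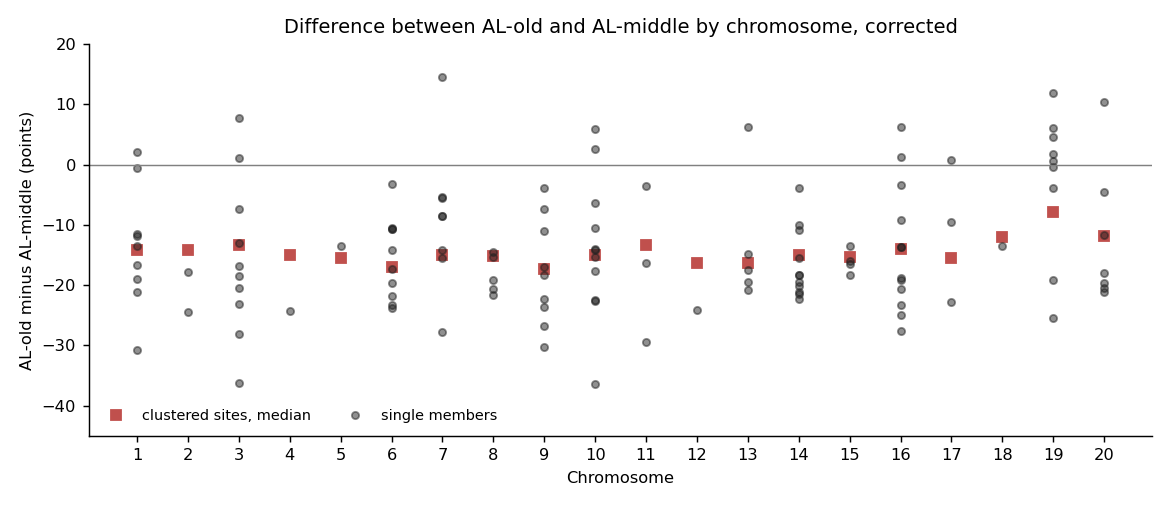
Corrected AL-old minus AL-middle difference (percentage points, vertical axis) by chromosome (horizontal axis); each round point is 1 member and each square the median of the clustered sites at 65% to 90% in AL-infant. Most members lie below 0 on the other chromosomes, while 5 of 9 on chromosome 19 lie above 0 and its square, at -7.94 points, is the highest.

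The members were set beside clustered sites of the same AL-infant methylation, and shares and medians lay close together. In the quasi-binomial model with the constants, 37.0% of 4045 clustered sites were called higher in CR-old than in AL-old, compared with 34.5% of the members. Lower in AL-old than in AL-middle were 34.5% of 3941 clustered sites and 29.5% of the members. On the log odds scale (natural log), which allows sites of different level to be compared, the median AL-old minus AL-middle difference was -0.75 for the members, -0.71 for the clustered sites, -0.69 for isolated sites over 90% in AL-infant and -0.35 for all sites with enough reads. For CR-old minus AL-old the medians were 0.86, 0.77, 0.83 and 0.46. Uncorrected medians were -0.17, -0.16, -0.13 and 0.20 for AL-old minus AL-middle, and 0.24, 0.15, 0.28 and -0.16 for CR-old minus AL-old. The medians of the members thus kept their sign without the constants but were much smaller. Those of clustered sites and of isolated sites over 90% did the same, whereas those over all sites changed sign. In the quasi-binomial model on uncorrected reads, the median for AL-old minus AL-middle was -0.052 for the members and 0.33 for all sites tested. For CR-old minus AL-old these medians were 0.069 and -0.11. These differences between sets of sites were not tested.

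**Figure D5:**
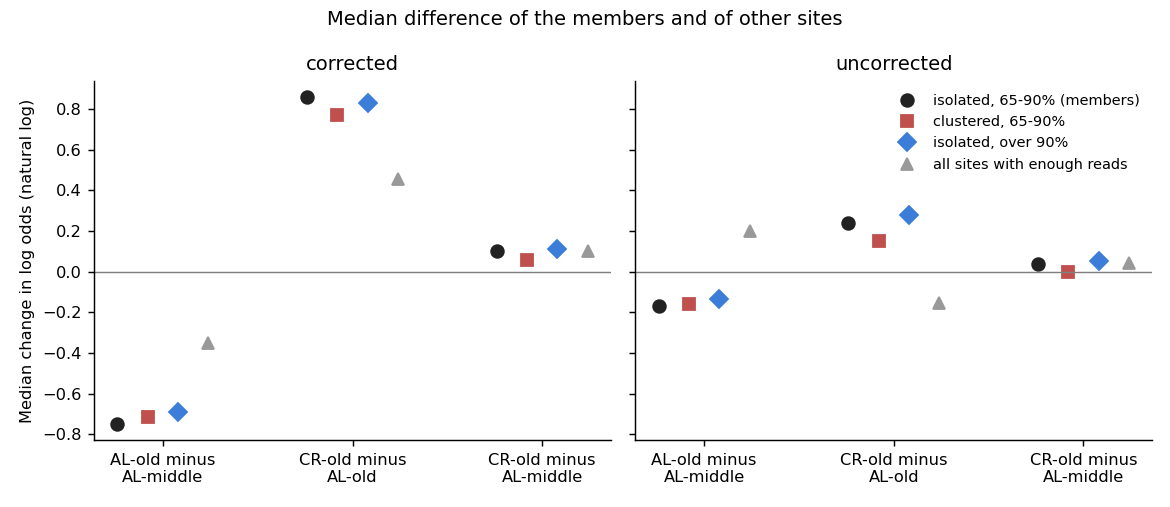
Median difference in log odds (natural log, vertical axis) for 3 comparisons (horizontal axis), corrected on the left and uncorrected on the right; each marker is the median of 1 set of sites. The members (black circles) lie close to clustered sites and to isolated sites over 90%, at -0.75, -0.71 and -0.69 for AL-old minus AL-middle, while all sites (grey triangles) lie at -0.35.

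The members were also divided by position and by AL-infant level. For AL-old minus AL-middle the median was -14.2 points in 25 members within 2 Mb of the first or last listed site and -16.4 points in 97 others. It was -16.9 points in 53 members with an AL-infant mean under 80% and -15.4 points in 69 members at 80% or more. For CR-old minus AL-old the medians were 14.2 points near the ends (24 members) and 18.6 points elsewhere (86 members), and 17.8 points on both sides of an AL-infant mean of 80%. These divisions were not tested.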

How the data were processed

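The authors aligned DREAM reads to SmaI sites of the rheMac2 build. For each site they deposited raw counts (methylated, unmethylated, total) and 2 values in percent, an uncorrected and a corrected one. Whole blood of 16 monkeys was analysed here. Members and lists were chosen with earlier results of these data known. The labels' processing notes name another build than the study; positions follow the rheMac2 site names. Main values are the corrected percent. Counts were tested in a quasi-binomial logistic model at each site with 100 or more reads in at least 3 monkeys of each group. Its offset was the log of each library's correction constant, its dispersion was moderated across sites with limma 3.58.1 (R 4.3.3) and floored at 1, and p-values were Benjamini-Hochberg adjusted over all sites, with calls at 0.05. The model was tested on simulated data. It called more unchanged sites than its threshold allows when simulated monkeys differed by an amount independent of depth, so calls of limma on log odds (0.5 reads added) stand beside it. Of the members, 24 could not be tested for CR-old against AL-old and 12 for AL-old against AL-middle.

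Single sites were also tested with exact two-sided permutations over monkeys. Named were the 5 largest changes in each direction among called members without overlap of groups, which therefore have small exact p-values by choice, the 5 largest differences of AL-old from AL-infant in each direction, the 3 smallest ranges over 16 monkeys and the sites beside each limit. Alternatives were uncorrected reads, 20 or 200 reads, 200 or 1000 bp, limits of 70% and 85%, limma, all 4 groups in 1 fit, a minimum change of 5 points and each monkey left out. CR-old against AL-middle, the monkey pair and log odds medians were added after the data were seen. Tables were made with pandas 2.3.3, numpy 2.4.6 and scipy 1.17.1 in Python 3.11.15, and plots with matplotlib 3.10.9.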

Additional observations from a re-analysis of the deposited data

Results flagged for a closer look

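In 65 groups of 4 or 5 monkeys, 2 values stood far from the others of their group. Chance gives about 1 in 20, a rate that cannot be set beside the AL-infant value, since AL-infant values chose the members. In AL-infant 49, 0.8065% of members (1 of 124) were under 50% methylated, while the other 3 infants had 0. That member was SmaI_rheMac2_152908 on chromosome 7 at position 164812921, with 38.1% in AL-infant 49. The rule on the AL-infant mean makes single infant values under 50% rare, so this share is a description, with no test. In AL-old 24 the interquartile range of the log odds over members was 0.6996, while AL-old 2, 7 and 33 had 1.007 to 1.068. AL-old 24 had the fewest reads (8075854) and the lowest correction constant (0.250), and the part of either in this value was not tested.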

How the results depend on the processing

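No paired analysis was possible because no replicate number is shared between groups. Most members called with the correction constants were not called on uncorrected reads. Calls also differed between tests that used the constants. On uncorrected reads 0 members were higher and 2 lower in CR-old than in AL-old, and 9 higher and 5 lower in AL-old than in AL-middle, and the medians were 3.995 points for CR-old minus AL-old, -3.27 for AL-old minus AL-middle and -9.67 for AL-old minus AL-infant. CR-old 4 alone against AL-old gave an uncorrected median of 3.77 points. The limma test called 0 members higher and 0 lower for CR-old minus AL-old and 0 higher for AL-old minus AL-middle. With all 4 groups in the fit, 75 members were higher and 3 lower in CR-old than in AL-old, and 56 lower in AL-old than in AL-middle. With members chosen again, numbers of sites differ: at 20 reads (316 members) 78 were higher and 0 lower in CR-old, and 1 higher and 72 lower in AL-old than in AL-middle; at 200 reads (77 members) 0 were lower in CR-old and 23 lower in AL-old; at 200 bp (1377 members) 516 and 3, and 8 and 439; at 70% to 85% (85 members) 23 were higher in CR-old, and 1 higher and 20 lower in AL-old. Leaving out 1 monkey gave 21 to 60 members higher and 0 to 1 lower in CR-old than in AL-old, and 0 to 2 higher and 19 to 64 lower in AL-old than in AL-middle. Where that monkey was AL-fed, the members were chosen again. The median difference kept its sign in each of these settings. Beside the main calls, shares over all sites are given above for uncorrected reads and limma only. The other counts therefore do not set the members apart from other sites. Counts at 1000 bp (91 members) and some counts of the other settings are not given here. The AL-old minus AL-infant difference of SmaI_rheMac2_361581 was -1.91 points without AL-infant 49 and up to 10.65 points without another monkey. The settings differed from the main one in the offset, the test, the members or the monkeys, and the cause of these changes was not tested. Depth limits the shallow values most, since a value can rest on 100 reads.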

Other observations

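Some members differed strongly between monkeys of the same group. They were chosen after their values were seen, and no test was made. At SmaI_rheMac2_152908 on chromosome 7 at position 164812921 the infants 49, 52, 54 and 57 had 38.1%, 69.7%, 95.4% and 99.6%, the largest SD within AL-infant of any member (28.3 points). AL-middle had 28.8% to 54.9%, AL-old 33 had 96.1% while AL-old 2, 7 and 24 had 44.3% to 58.0%, and CR-old 4 and 28 had 50.9% and 39.5%. At SmaI_rheMac2_2374 on chromosome 1 at position 4929588 the infants were within 79.97% to 86.8%. AL-middle 17, 42 and 43 had 17.8%, 81.7% and 51.3%, and AL-old 2, 7, 24 and 33 had 30.3%, 82.2%, 34.98% and 51.4%. CR-old 1, 4 and 28 had 81.5%, 76.5% and 81.4%, above 5 of the 7 AL-middle and AL-old values.

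At SmaI_rheMac2_255384 on chromosome 13 at position 137404075 all 5 AL-middle values (37.5% to 49.5%) lay below all 4 AL-infant values (76.9% to 84.6%), AL-old had 41.8% to 67.0%, and CR-old 1, 4 and 28 had 98.5%, 74.0% and 68.0%. CR-old exceeded AL-middle by 35.01 points here, the largest such difference among the members (quasi-binomial model with limma moderation, Benjamini-Hochberg adjusted p = 0.117). At SmaI_rheMac2_38695 on chromosome 2 at position 49145658 AL-middle was highest, with 91.7% to 99.8%, while AL-infant had 85.5% to 89.0%, AL-old 70.3% to 89.0% and CR-old 78.9% to 86.3%.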
